A study of Mus musculus with 8 samples.

Results

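The 10 genes described here encode the AP-1 transcription factors of the FOS family (Fos, Fosb, Fosl1, Fosl2) and the JUN family (Jun, Junb, Jund), the related factor ATF3 (Atf3) and the small MAF proteins MAFF and MAFK (Maff, Mafk). They were chosen by symbol from the 43346 genes of a count table of mouse macrophage polyadenylated RNA, with identifiers matched to mouse symbols, and all 10 passed the filter on low counts. Bone marrow-derived macrophages (BMDM), grown in medium conditioned by L929 cells, were unstimulated (0 h, called rest below) or given lipopolysaccharide (LPS, a bacterial cell wall component sensed through Toll-like receptor 4) and collected at 3 h, with 2 libraries per state. Cells labelled hMPDM and the mouse macrophage line RAW 264.7 (RAW), which grew in DMEM with 10% fetal bovine serum, had 1 unstimulated library and 1 LPS library at 3 h each. No genotype, strain or animal age was given in the sources used here, and neither were the LPS dose, the meaning of hMPDM or whether the BMDM libraries came from separate cultures. The p-values then rest on the spread of these libraries alone, and part or all of it may be technical. If the BMDM libraries of a state came from a single culture, the spread lacks variation between cultures. The p-values would then be too small.

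AP-1 is a family of dimers built from basic leucine zipper proteins. FOS proteins need a JUN partner to bind DNA, whereas JUN proteins can also pair with each other, and the pair formed sets which sites are bound and how strongly transcription follows. Small MAF proteins lack an activation domain of their own and act through partners of the NRF2 and BACH type, while ATF3 is known from mouse macrophages as an LPS-induced factor that dampens Toll-like receptor targets such as Il6. Genes of this group, Fos above all, are textbook immediate early genes whose transcripts come and go quickly after a stimulus, and the libraries sample only 0 h and 3 h.

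The 4 genes of the group that rose most in BMDM (Junb, Atf3, Maff, Mafk), and the founding members Fos and Jun, which fell there, are shown by the 250 bases before a RefSeq start site (GRCm38.p6, each 5′ to 3′ on the strand of the gene). Capitals mark the sequences that were searched for and found on either strand. They are the cAMP response element TGACGTCA, its shorter form TGACG, the 8-base AP-1 form TGANNTCA, the TATAAA box and the kappaB site.
Junb: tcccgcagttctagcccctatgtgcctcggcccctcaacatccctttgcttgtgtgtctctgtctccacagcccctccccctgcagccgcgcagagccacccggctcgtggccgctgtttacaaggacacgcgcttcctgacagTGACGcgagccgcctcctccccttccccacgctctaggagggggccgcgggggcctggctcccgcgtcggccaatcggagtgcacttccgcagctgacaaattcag
Atf3: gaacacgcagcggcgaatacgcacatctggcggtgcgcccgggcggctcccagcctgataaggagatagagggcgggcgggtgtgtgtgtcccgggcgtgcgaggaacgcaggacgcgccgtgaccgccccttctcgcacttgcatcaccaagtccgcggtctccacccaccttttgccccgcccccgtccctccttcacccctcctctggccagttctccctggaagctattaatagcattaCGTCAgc
Maff: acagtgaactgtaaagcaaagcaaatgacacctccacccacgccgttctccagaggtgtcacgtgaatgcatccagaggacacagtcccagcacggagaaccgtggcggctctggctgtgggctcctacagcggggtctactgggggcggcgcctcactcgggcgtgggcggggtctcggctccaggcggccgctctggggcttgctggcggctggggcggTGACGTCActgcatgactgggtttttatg
Mafk: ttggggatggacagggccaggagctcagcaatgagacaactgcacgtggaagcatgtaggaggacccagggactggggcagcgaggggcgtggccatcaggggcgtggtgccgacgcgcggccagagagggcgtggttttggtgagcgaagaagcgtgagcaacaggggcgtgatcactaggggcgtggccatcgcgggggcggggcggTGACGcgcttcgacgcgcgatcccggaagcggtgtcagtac
Fos: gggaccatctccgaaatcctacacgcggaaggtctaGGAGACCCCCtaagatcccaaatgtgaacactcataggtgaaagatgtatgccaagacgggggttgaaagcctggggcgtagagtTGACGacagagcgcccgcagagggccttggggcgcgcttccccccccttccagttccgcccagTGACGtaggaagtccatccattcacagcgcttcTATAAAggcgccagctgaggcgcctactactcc
Jun: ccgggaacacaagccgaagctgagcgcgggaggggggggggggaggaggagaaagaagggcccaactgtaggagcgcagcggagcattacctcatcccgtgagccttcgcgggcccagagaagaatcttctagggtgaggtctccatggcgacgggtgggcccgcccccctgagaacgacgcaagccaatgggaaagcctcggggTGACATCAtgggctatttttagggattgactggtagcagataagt
These windows lie at chr8:84978749-84978998 (minus strand) for Junb, chr1:191183334-191183583 (minus strand) for Atf3, chr15:79347270-79347519 (plus strand) for Maff, chr5:139791286-139791535 (plus strand) for Mafk, chr12:85473640-85473889 (plus strand) for Fos and chr4:95052223-95052472 (minus strand) for Jun. The Atf3 and Mafk starts lie inside the deposited spans of their genes, and the Maff start is the second of 3 that RefSeq lists. A RefSeq promoter was matched for 9 of the 10 genes.

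The short form TGACG was present before at least 1 start of 6 of the 9 genes (Fos, Fosb, Junb, Atf3, Maff and Mafk), and 17.8% of all 32851 RefSeq promoter windows of this length hold it. The full TGACGTCA was found before Maff alone, with its first base 29 bases before the start, and 1.55% of all windows hold it. Jun, Jund and Maff held TGANNTCA, which 11.9% of all windows hold. In the Maff window shown it is the full element and overlaps the shorter form. Before the third Maff start it is TGACATCA, which overlaps neither. Maff was searched before each of its starts, while the percentages are for single windows. The Jun match was TGACATCA, 45 bases before the start, which is the sequence known as an AP-1 element in the human JUN promoter. A kappaB site, the DNA sequence bound by NF-kappaB, was found before Fos, Fosb, Fosl2 and Maff, against 7.25% of all windows. In Maff it lay only before the third start, whose window is not shown. TATAAA was found before Fos, against 12.4%. The classical AP-1 element TGANTCA (6.75% of windows), the interferon-type element TTCNNNGAA (7.02%), the serum response CArG box (1.47%) and the MAF recognition element (0.00609%) matched none of the 9 genes in these windows.

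Library totals ran from 3116434 counts in RAW at rest to 19307312 counts in 1 BMDM library at rest, so 3 counts, the most that a count of 0 allows, correspond to 0.155 to 0.963 CPM (counts per 1000000). Levels below are CPM scaled by TMM, which aligns libraries on the bulk of their genes. All 8 macrophage markers were detected in every library, and their summed level was 14426 to 19109 CPM. Summed neutrophil markers were 47.6 and 53.8 CPM in BMDM at rest, 80.7 and 74.9 CPM in BMDM after LPS, 16.2 and 24.2 CPM in hMPDM and under 5 CPM in both RAW libraries. Their part in the results was not tested. Summed markers of mast, B, T and NK, dendritic, fibroblast and erythroid cells stayed at or below 3.71 CPM. The hMPDM LPS library was checked with the 16 genes that had at least 5 CPM in both BMDM states but no more than 5% of that level in hMPDM at rest. Their pooled hMPDM level was 1.35% of that of BMDM at rest, which the choice of genes keeps low, and 10.8% after LPS, which is in part what such a choice gives. Whether BMDM RNA is present in this library was not tested. Taking that share of BMDM counts out of this library, as an alternative, removes 7.56% of its Fos counts and 25.5% of its Fosl2 counts, the lowest and highest shares among the members with more than 3 counts there, and calls on the 10 genes that change with it are given both ways. In bulk RNA, fewer cells of a type and less RNA per cell cannot be told apart.

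In BMDM, 9 of the 10 genes changed with LPS (edgeR quasi-likelihood test, Benjamini-Hochberg adjusted p under 0.05): Junb, Atf3, Maff, Mafk and Jund rose, Fosl2, Fosb, Fos and Jun fell, and Fosl1 did not pass the test. Of the 12461 genes tested, 31.7% rose and 31.1% fell, so most genes of these libraries passed, and the count of 9 in 10 stands beside 62.7% over all genes. The median log2 difference was 0.41 over the 10 genes and -0.02 over all genes. Library sizes used without TMM factors shift every BMDM log2 value by -0.37, make 20.8% rather than 50.5% of all calls higher ones, and end the call on Jund. The plot of levels shows all 10 genes in each library.

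**Figure D1:**
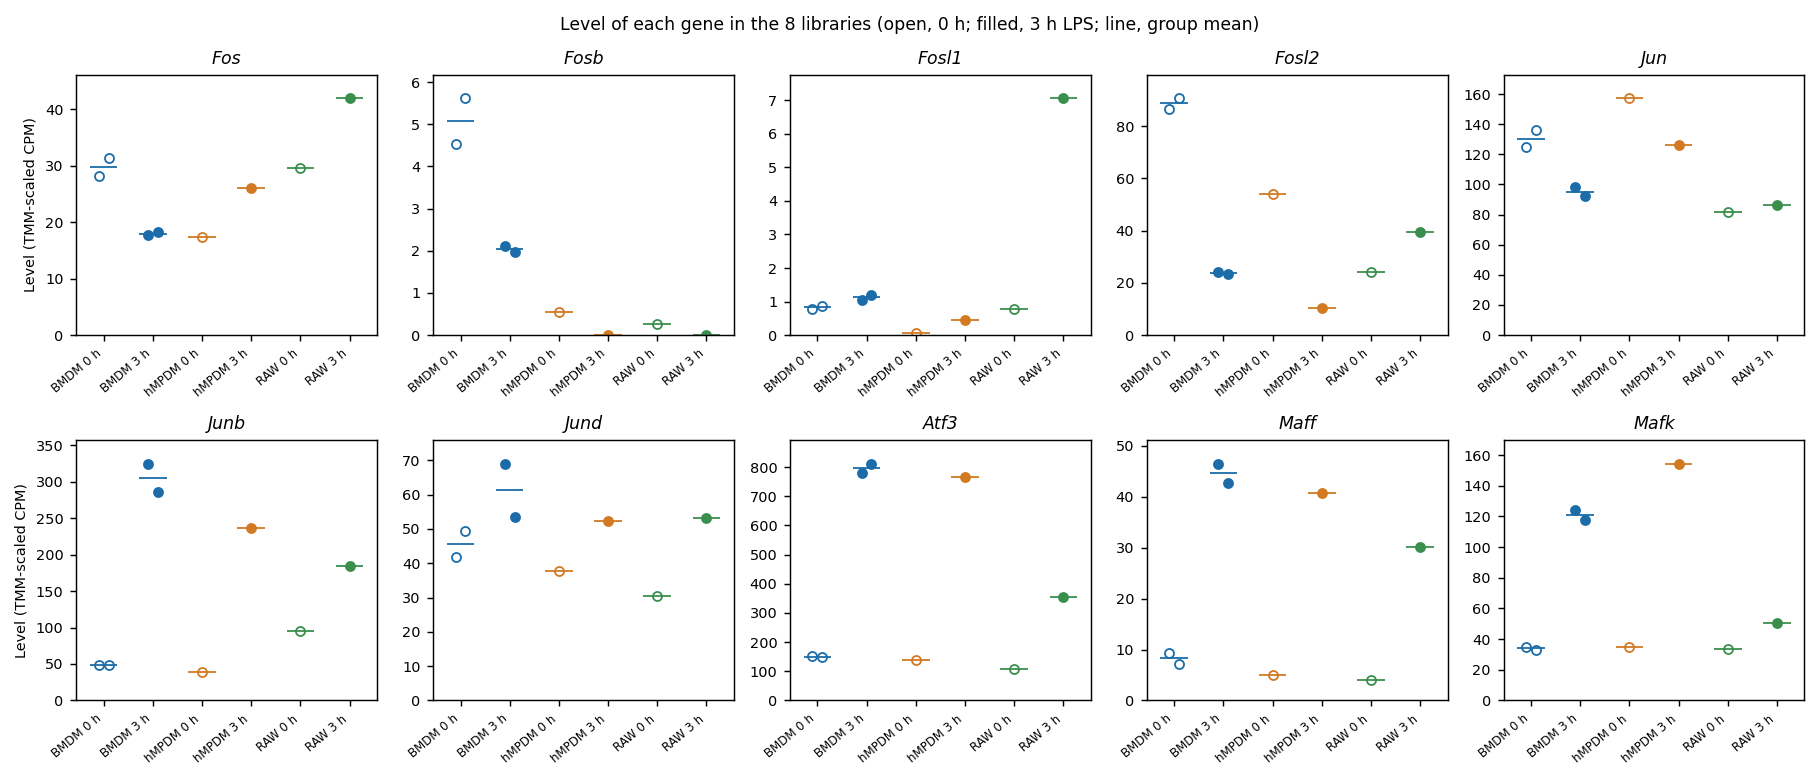
Level of each of the 10 genes (TMM-scaled CPM, y axis, a separate scale from 0 for each gene) in each library of BMDM, hMPDM and RAW at 0 h (open circles) and 3 h after LPS (filled circles), with lines at group means, which rest on 2 libraries in BMDM and 1 elsewhere. Junb, Atf3, Maff and Mafk stood higher after LPS in every cell type, from 107 to 356 CPM for Atf3 in RAW, for example, while Fos was lower after LPS in BMDM and higher in hMPDM and RAW.

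Fos (ENSMUSG00000021250.9, chromosome 12, 85473890 to 85477273, mm10, plus strand) encodes the founding FOS protein. Its level was 28.2 and 31.4 CPM in the unstimulated BMDM libraries and 17.7 and 18.3 CPM in those with LPS, 17.4 and 26.0 CPM in hMPDM at rest and after LPS, and 29.6 and 41.9 CPM in RAW. Fos was thus lower after LPS in both BMDM libraries, with no overlap, and higher after LPS in hMPDM and RAW. In BMDM it fell by 0.73 on the log2 scale (SE 0.0902, adjusted p 3.35e-08 by edgeR). The hMPDM ratio, LPS over rest, was 1.49 (95% counting interval 1.19 to 1.85) and the RAW ratio was 1.42 (1.12 to 1.80), each from 1 library per state, so without a test. Scaled by library size, the hMPDM log2 ratio of Fos was 0.19.

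The test of the difference itself (the interaction of LPS and cell type, in which each single library is taken to be as variable as the BMDM pairs) put the Fos response 1.30 log2 units above that of BMDM in hMPDM (SE 0.192, adjusted p 1.54e-05 by edgeR) and 1.23 above it in RAW (SE 0.193, adjusted p 9.87e-06). With the BMDM share taken out of the hMPDM LPS library, the hMPDM difference was 1.35 (adjusted p 1.19e-05 by edgeR). The order of Fos levels was RAW after LPS, BMDM at rest (29.8 ± 2.28 CPM, SD, n = 2), RAW at rest, hMPDM after LPS, BMDM after LPS (18.0 ± 0.411 CPM, n = 2) and hMPDM at rest. BMDM and RAW at rest did not pass the test against each other, with a log2 difference of -0.02 (SE 0.145).

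Fosl2 (ENSMUSG00000029135.9, chromosome 5, 32136472 to 32157831, plus strand) encodes FRA2, a FOS family protein without the strong activation domain of FOS. It stood at 86.8 and 90.7 CPM in unstimulated BMDM and 24.0 and 23.5 CPM in BMDM with LPS, at 54.2 and 10.3 CPM in hMPDM at rest and after LPS, and at 24.1 and 39.6 CPM in RAW. Its direction was down in BMDM and hMPDM and up in RAW. BMDM Fosl2 fell by 1.91 log2 units (SE 0.0684, adjusted p 9.80e-21 by edgeR), the largest fall of the 10 genes there. In hMPDM it was 5.29-fold lower after LPS (95% counting interval 3.94 to 7.25), and in RAW it was 1.64-fold higher (1.27 to 2.14).

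The Fosl2 response of RAW lay 2.63 log2 units above that of BMDM (SE 0.189, adjusted p 3.76e-12 by edgeR). That of hMPDM differed by -0.49, which did not pass (SE 0.215, adjusted p 0.202 by edgeR). With the BMDM share taken out, the hMPDM difference was -0.76 (adjusted p 0.0409 by edgeR) and passed. At rest Fosl2 was lower than in BMDM in both other cell types, with log2 differences of -0.71 in hMPDM (SE 0.0634) and -1.88 in RAW (SE 0.125). After LPS it was 0.74 log2 units higher in RAW than in BMDM (SE 0.130), the opposite side from rest.

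Fosb and Fosl1 were the scarcest of the 10 genes. Fosb (ENSMUSG00000003545.2, chromosome 7, 19302721 to 19310045, minus strand), a FOS protein of the immediate early kind, had 76 and 116 counts in unstimulated BMDM and 14 and 25 with LPS, which is 4.54 and 5.62 CPM against 2.12 and 1.98 CPM. It fell by 1.34 log2 units in BMDM (SE 0.238, adjusted p 1.54e-05 by edgeR), a call that DESeq2 does not make (adjusted p 0.208). Elsewhere it was close to the floor: 9 counts in hMPDM and 1 in RAW at rest, and 0 in both after LPS. At rest its hMPDM level was 9.50-fold below BMDM (counting interval 4.90 to 21.1) and its RAW level 19.6-fold below (3.48 to 780, from 1 count). After LPS, with 3 counts put in place of the count of 0, Fosb in BMDM was 3.09-fold higher than in hMPDM and 3.15-fold higher than in RAW. These values leave out the counting error of the BMDM libraries. The counting intervals start lower, at 2.40-fold against hMPDM and 2.44-fold against RAW, and have no upper end.

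Fosl1 (ENSMUSG00000024912.5, chromosome 19, 5447703 to 5455945, plus strand) encodes FRA1, the FOS family member known from invasive tumour cells. It had 13 and 18 counts in BMDM at rest, 7 and 15 after LPS, 1 and 2 in hMPDM and 3 and 33 in RAW. In scaled terms unstimulated BMDM held 0.777 and 0.872 CPM and BMDM with LPS 1.06 and 1.19 CPM, and RAW went from 0.785 to 7.06 CPM, the only library with Fosl1 above 2 CPM. The BMDM difference did not pass (log2 0.46, SE 0.411, adjusted p 0.347 by edgeR), although the groups do not overlap. The RAW ratio was 9.00 (counting interval 2.82 to 45.9, from 3 counts at rest), and the RAW response exceeded that of BMDM by 2.70 log2 units (SE 0.834, adjusted p 0.0173 by edgeR). After LPS, Fosl1 in RAW was 6.18-fold above BMDM (3.50 to 11.1).

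Per kilobase of the deposited gene length, the 4 FOS genes together held 28.5 and 30.9 CPM per kb in BMDM at rest and 12.8 and 13.0 CPM per kb after LPS. In hMPDM the sum went from 16.8 to 13.0 CPM per kb, and in RAW from 17.2 to 28.7 CPM per kb, the single increase of the 3 cell types. The make-up moved as well. Fosl2 held 52.0% and 50.2% of the FOS family sum in BMDM at rest and 32.0% and 30.9% after LPS, with Fos taking 42.1% and 43.3% before and 58.7% and 59.7% after. In hMPDM the Fos share went from 44.0% to 84.6%, and in RAW the Fosl1 share went from 2.67% to 14.4%. These shares are of RNA, and say nothing of the dimers formed.

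**Figure D2:**
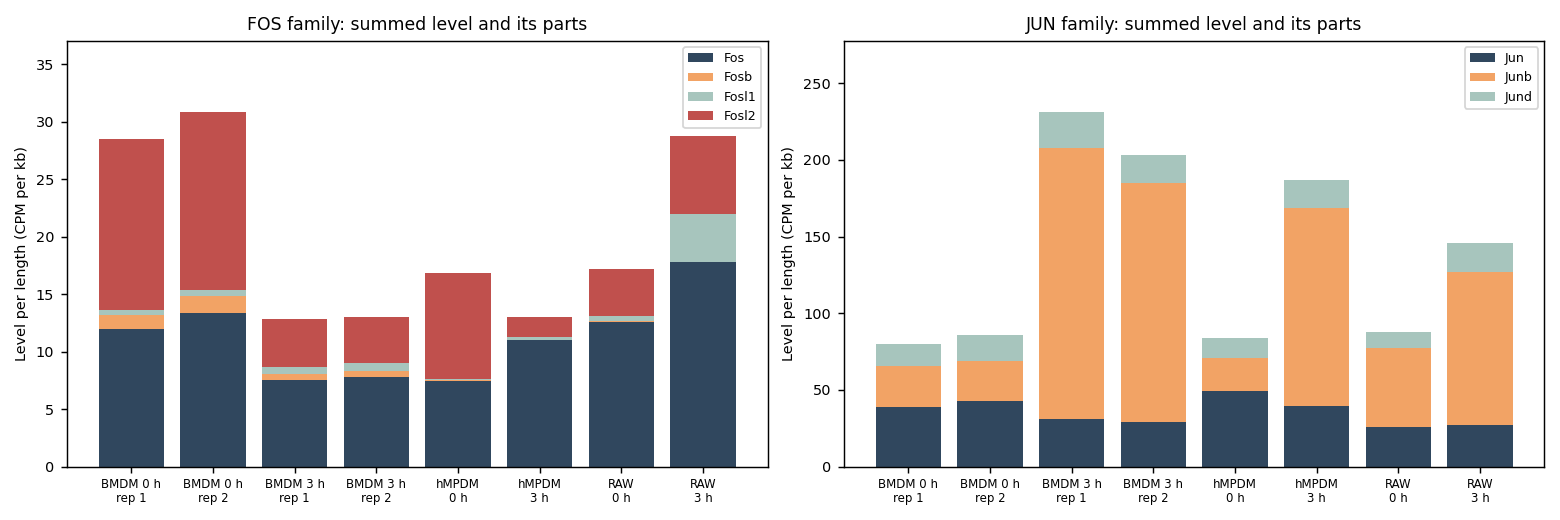
Level per kilobase (TMM-scaled CPM per kb, y axis) of the genes of the FOS family (left) and the JUN family (right), stacked by gene, in each of the 8 libraries. The FOS sum was lower after LPS in BMDM (28.5 and 30.9 against 12.8 and 13.0) and higher in RAW (17.2 against 28.7), and Junb took most of the JUN sum in every LPS library.

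Junb (ENSMUSG00000052837.5, chromosome 8, 84976909 to 84978748, minus strand, 1 exon) encodes a JUN protein that activates less strongly than JUN from single AP-1 sites. It was at 48.3 and 48.4 CPM in unstimulated BMDM and at 325 and 287 CPM in BMDM with LPS. Without and with LPS, hMPDM stood at 39.4 and 237 CPM and RAW at 95.2 and 184 CPM. Every LPS library was above every library at rest. BMDM Junb rose by 2.65 log2 units (SE 0.0533, adjusted p 3.60e-27 by edgeR), the largest rise of the 10 genes. The hMPDM ratio was 6.02 (95% counting interval 5.45 to 6.64) and the RAW ratio 1.93 (1.71 to 2.19).

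The hMPDM response of Junb did not pass the test against BMDM (log2 difference -0.06, SE 0.108, adjusted p 0.853 by edgeR). The RAW response was smaller, with a log2 difference of -1.70 (SE 0.128, adjusted p 1.15e-11 by edgeR). That value combines a difference in each state. At rest Junb was 0.98 log2 units higher in RAW than in BMDM (SE 0.106, adjusted p 4.01e-09 by edgeR), the only one of the 10 genes that was higher in RAW at rest, and after LPS it was lower, at -0.72 (SE 0.0705, adjusted p 3.14e-10).

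Jun (ENSMUSG00000052684.4, chromosome 4, 95049034 to 95052222, minus strand, 1 exon), the founding JUN gene, moved the other way and less. Its levels were 125 and 136 CPM in unstimulated BMDM and 98.1 and 92.5 CPM in BMDM with LPS, 157 and 126 CPM in hMPDM at rest and after LPS, and 81.6 and 86.5 CPM in RAW. BMDM Jun fell by 0.46 log2 units (SE 0.0522, adjusted p 5.82e-09 by edgeR). It was 1.24-fold lower after LPS in hMPDM (counting interval 1.14 to 1.36), while the RAW ratio of 1.06 had an interval of 0.911 to 1.23 that includes 1. The RAW response lay 0.55 above that of BMDM (SE 0.132, adjusted p 0.00218 by edgeR), a call lost with DESeq2 (adjusted p 0.0771). It was also lost with the spread set to a coefficient of variation of 10% (adjusted p 0.282 by edgeR). Jun shares 232 exonic bases with the antisense gene Junos, which had at most 20 counts in any library.

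Jund (ENSMUSG00000071076.5, chromosome 8, 70697739 to 70700616, plus strand, 1 exon), which shares 543 exonic bases with the antisense gene Gm11175 (at most 6 counts in any library), encodes the JUN protein known for its steady presence in resting cells. It varied least in fold among the genes that rose in BMDM, with 41.9 and 49.3 CPM without LPS and 69.1 and 53.5 CPM with it. The 2 LPS libraries differ from each other by more than the nearest pair across states. The log2 rise was 0.37 (SE 0.0831, adjusted p 2.74e-04 by edgeR); scaled by library size it was 0.01 (adjusted p 0.945), and with DESeq2 the adjusted p was 0.0583. Jund went from 37.7 to 52.4 CPM in hMPDM and from 30.3 to 53.3 CPM in RAW, ratios of 1.39 (1.19 to 1.61) and 1.76 (1.40 to 2.21), and neither response passed the test against BMDM (adjusted p 0.843 and 0.190 by edgeR), although the RAW one passed by library size (0.71, adjusted p 0.0107), without the first BMDM library at rest (0.54, adjusted p 0.0202) or the first after LPS (0.58, adjusted p 0.00932). Its levels after LPS in hMPDM and RAW did not pass against BMDM, but did without the second BMDM LPS library (log2 -0.40 and -0.37, adjusted p 0.0105 and 0.00599), and its lower level in hMPDM at rest was lost without the second BMDM library at rest (-0.15, adjusted p 0.251).

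Per kilobase, the JUN family sum was 79.9 and 86.1 CPM per kb in BMDM at rest and 231 and 203 CPM per kb after LPS. Junb held 32.9% and 30.6% of it at rest and 76.3% and 76.6% after LPS, and the Jun share went from 48.9% and 49.5% to 13.3% and 14.3%. hMPDM showed the same exchange, with Junb going from 25.6% to 69.0% and Jun from 58.8% to 21.2%. RAW began with Junb as its leading JUN gene at 58.9%, and its LPS library had 68.6%.

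Atf3 (ENSMUSG00000026628.9, chromosome 1, 191170296 to 191218039, minus strand) had the highest level per kilobase of the 10 genes after LPS in all 3 cell types. It was at 151 and 148 CPM in unstimulated BMDM and 779 and 812 CPM in BMDM with LPS, at 139 and 765 CPM in hMPDM, and at 107 and 356 CPM in RAW. The BMDM and hMPDM levels were close in both states, and RAW stood lower in both. BMDM Atf3 rose by 2.41 log2 units (SE 0.0385, adjusted p 8.15e-30 by edgeR). The hMPDM ratio was 5.51 (95% counting interval 5.22 to 5.81) and that of RAW 3.33 (2.99 to 3.72).

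The test of the difference gave 0.05 for hMPDM (SE 0.0694, adjusted p 0.805 by edgeR) and -0.68 for RAW (SE 0.0989, adjusted p 3.26e-06), so the RAW rise was the smaller one. With the spread set to a coefficient of variation of 10%, in place of the 2.27% estimated from the BMDM pairs, the RAW difference no longer passed (adjusted p 0.0895). Against BMDM, Atf3 in RAW was lower in both states, with log2 differences of -0.48 at rest (SE 0.0791) and -1.16 after LPS (SE 0.0524).

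Maff (ENSMUSG00000042622.9, chromosome 15, 79347541 to 79359072, plus strand), a small MAF gene, had the largest hMPDM ratio of the genes for which one could be given. BMDM libraries held 9.33 and 7.17 CPM without LPS and 46.5 and 42.8 CPM with it, hMPDM went from 5.05 to 40.8 CPM and RAW from 3.92 to 30.2 CPM. No library at rest reached 10 CPM, and no LPS library was under 30. BMDM Maff rose by 2.44 log2 units (SE 0.0996, adjusted p 2.83e-19 by edgeR), and the ratios were 8.08 in hMPDM (6.21 to 10.6) and 7.69 in RAW (4.51 to 14.1). Neither response passed the test against BMDM in the fit over all libraries, with log2 differences of 0.57 (SE 0.227, adjusted p 0.145 by edgeR) and 0.50 (SE 0.406, adjusted p 0.448), although the hMPDM value passed without the second BMDM library at rest (0.77, adjusted p 0.0192).

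Mafk (ENSMUSG00000018143.6, chromosome 5, 139791513 to 139802653, plus strand), the other small MAF gene here, separated RAW from the other 2 cell types. At rest it was at 34.9 and 32.8 CPM in BMDM, 34.6 CPM in hMPDM and 33.8 CPM in RAW, within the BMDM pair for hMPDM and RAW. After LPS it was at 124 and 118 CPM in BMDM, 154 CPM in hMPDM and 50.7 CPM in RAW. BMDM Mafk rose by 1.83 log2 units (SE 0.0573, adjusted p 2.87e-22 by edgeR). The ratios were 4.46 in hMPDM (3.99 to 4.99) and 1.50 in RAW (1.21 to 1.88), and the RAW response was below that of BMDM by a log2 difference of -1.25 (SE 0.175, adjusted p 1.76e-06 by edgeR). The hMPDM difference of 0.32 did not pass (adjusted p 0.0639 by edgeR), but it did with the BMDM share taken out (0.36, adjusted p 0.0348) and without the first BMDM LPS library (0.35, adjusted p 0.0238).

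Together, per kilobase, Maff and Mafk went from 13.3 and 11.8 CPM per kb to 53.8 and 50.4 in BMDM, from 11.3 to 58.9 in hMPDM and from 10.5 to 27.2 in RAW. Maff held 17.6% of the small MAF sum in RAW at rest and 52.3% after LPS.

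**Figure D3:**
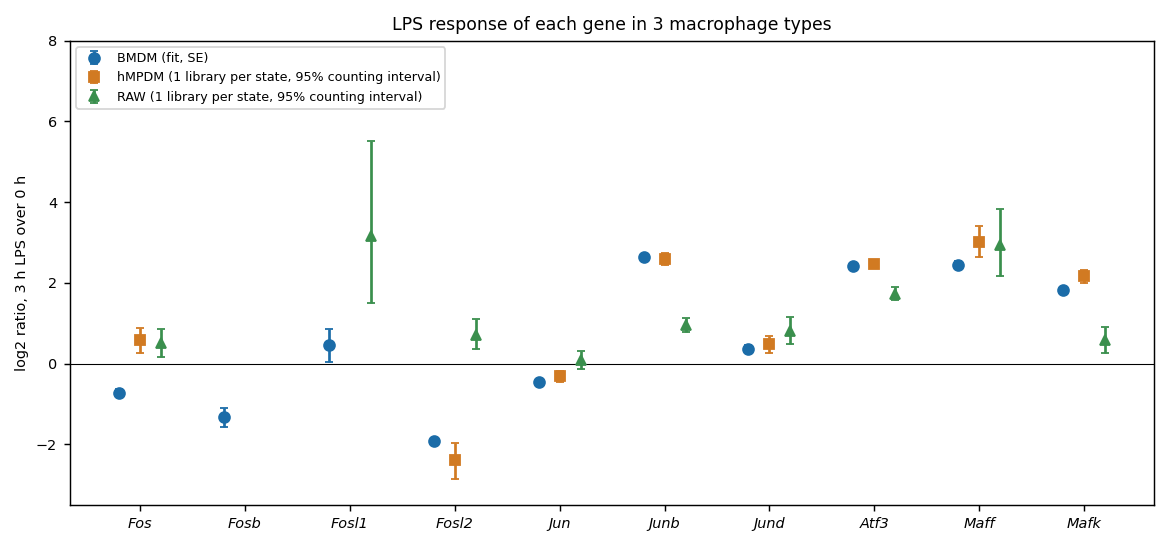
LPS response of each gene as a log2 ratio of 3 h LPS over 0 h (y axis) in BMDM (circles, fitted value with SE, 2 libraries per state), hMPDM (squares) and RAW (triangles), the latter with 95% counting intervals from 1 library per state; points with too few counts for a ratio are left out. Junb, Atf3 and Mafk sit lower in RAW than in BMDM, Fos and Fosl2 sit above BMDM in RAW, and the Fosl1 interval in RAW is wide because it rests on 3 counts at rest.

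Counted over comparisons, hMPDM without a test had 4 of the 10 genes at least 2-fold higher after LPS with 5 CPM or more in the higher library (Junb, Atf3, Maff, Mafk), against 7.98% of all genes, and 1 lower (Fosl2), against 5.61%. By the same size rule RAW had 3 higher (Fosl1, Atf3, Maff), against 2.07%, and none lower, against 0.923%. The response of hMPDM differed from that of BMDM for Fos alone, higher in hMPDM, where 3.96% of all genes were higher and 3.89% lower (7.86% in either direction). That of RAW differed for 7: higher for Fos, Fosl1, Fosl2 and Jun (10.0% of all genes) and lower for Junb, Atf3 and Mafk (12.7%), against 22.7% of all genes in either direction. By library size the split of all such RAW calls moves from 44.0% to 75.6% higher ones, with a shift of 0.27 in every gene, Jund becomes a higher call, and Junb, Atf3 and Mafk kept the lower side under all scalings run.

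**Figure D4:**
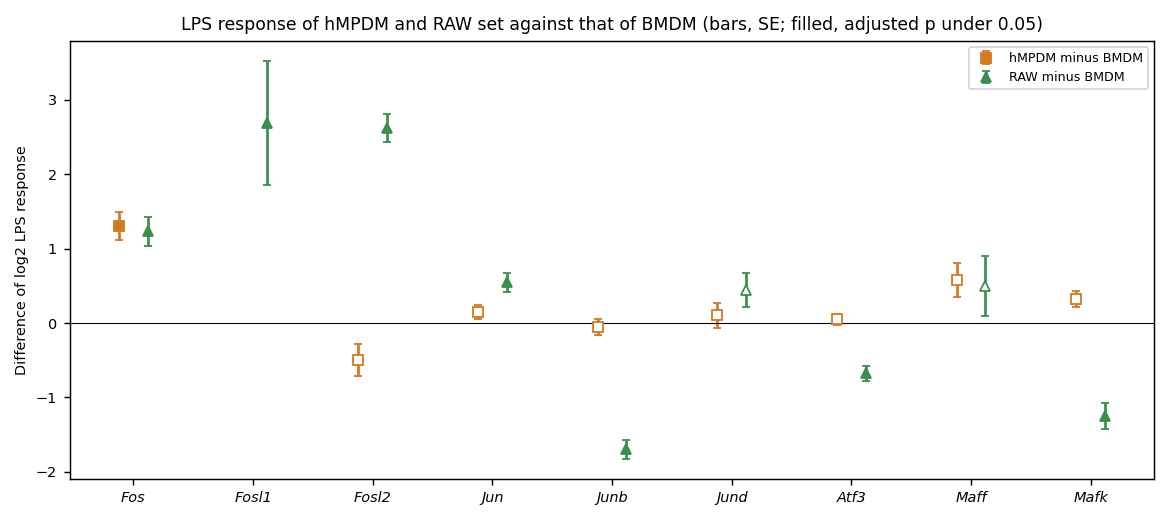
Difference of each gene's LPS response in hMPDM or RAW from that of BMDM (log2 units, with SE), from the interaction of LPS and cell type; filled symbols passed the test, and genes with too few counts for the comparison are left out. Fos is above 0 in both (1.30 and 1.23), Fosl2 in RAW is 2.63 above BMDM, and Junb (-1.70), Mafk (-1.25) and Atf3 (-0.68) are below BMDM in RAW.

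At rest, 7 of the 10 genes were lower in hMPDM than in BMDM (19.2% of all genes) and 1, Jun, was higher by 0.27 log2 units (SE 0.0538; 19.0% of all genes), which makes 8 called beside 38.2% of all genes. The lower ones were Fos, Fosb, Fosl1, Fosl2, Junb, Jund and Maff, so that all 4 FOS genes were among them. Their log2 differences ran from -0.28 for Jund to -0.78 for Fos among those with more than 10 counts in each library, and Fosl1, with 1 count in hMPDM, was 13.8-fold lower (counting interval 2.30 to 563). Of these 8 calls DESeq2 made 3, those on Fos, Fosb and Fosl2, and after LPS it made 3 of the 6 below, on Fosl2, Jun and Junb. RAW at rest was lower for 6 (Fosb, Fosl2, Jun, Jund, Atf3, Maff; 31.3% of all genes) and higher for Junb (27.1%), 7 called in all beside 58.4% of all genes. The Jund and Maff calls were not made by DESeq2 (adjusted p 0.0726 for both).

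After LPS, hMPDM was above BMDM for Fos, Jun and Mafk (12.5% of all genes) and below it for Fosb, Fosl2 and Junb (12.5%), 6 called beside 25.0% of all genes. RAW after LPS was above BMDM for Fos, Fosl1 and Fosl2 (29.8%) and below it for Fosb, Junb, Atf3, Maff and Mafk (36.4%), 8 called beside 66.2% of all genes. The Maff call was lost by library size (-0.083, adjusted p 0.608 by edgeR) and with DESeq2 (adjusted p 0.145). Scaled by library size, RAW levels after LPS shift by 0.47 against BMDM, 68.5% rather than 45.0% of all calls are higher ones, and Jun and Jund turn from -0.13 and -0.16 to 0.34 and 0.31 and pass. At rest the RAW shift was 0.20 and the split moved from 46.4% to 61.0%.

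One LPS term fitted over all 3 cell types, in which BMDM weighs most, had 5 genes higher (Maff 2.64, Atf3 2.26, Junb 2.24, Mafk 1.68 and Jund 0.51 log2 units; 25.0% of all genes) and 3 lower (Fosl2 -1.45, Fosb -1.40 and Jun -0.29; 24.2%), against 49.1% of all genes in either direction. Fos (-0.15, adjusted p 0.648 by edgeR) and Fosl1 (1.24, adjusted p 0.0621) did not pass, the former with opposite directions in its cell types. Fosl2, although called lower, was higher after LPS in RAW (ratio 1.64, counting interval 1.27 to 2.14). The Jun ratio in RAW was 1.06 (0.911 to 1.23). Fosl1 did pass with DESeq2 (adjusted p 0.0481), with no filter (adjusted p 0.0225 by edgeR) and with a coefficient of variation of 10% (adjusted p 6.61e-04). The Fosl2 and Jun calls did not hold when any 1 BMDM library was left out (adjusted p by edgeR 0.0825 to 0.126 for Fosl2 and 0.107 to 0.144 for Jun), and without the hMPDM libraries their adjusted p by edgeR was 0.113 and 0.120. Scaling by library size shifts this term by -0.31, with 20.7% rather than 50.8% of calls higher, and the Jund call is lost (0.20, adjusted p 0.251 by edgeR). With the BMDM share taken out of the hMPDM LPS library the Jun call is lost too (-0.28, adjusted p 0.0501 by edgeR).

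Related genes were read from lists chosen with earlier results of these data known. Each list is given by its counts in BMDM, where 31.7% of all 12461 genes rose and 31.1% fell, with a median log2 difference of -0.02. Counts under library-size scaling, which lowers every value, stand beside them. By that scaling 1997 of the 12461 genes rose and 7616 fell. Of 12 tested basic leucine zipper genes listed as relatives of AP-1, 6 rose and 4 fell (median 0.21, with 5 and 6 by library size). Batf2 rose by 4.62 log2 units, from 1.89 to 47.3 CPM, and Batf by 2.87, from 7.88 to 57.7 CPM. BATF proteins lack an activation domain and pair with JUN proteins, and Batf had no counts in RAW. Ddit3, which encodes the stress factor CHOP, fell by 1.21 units, and Atf4 fell by 0.32. Jdp2, which encodes a JUN-binding repressor of AP-1 and was picked after its values were seen, went from 40.8 to 262 CPM.

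Of 6 tested genes on the list of small MAF partners, 4 rose and 1 fell (median 0.46, with 3 and 3 by library size). That list also holds Mafg, itself a small MAF gene, counted among the rises and, by library size, among the falls. Bach1, a haem-sensing repressor, rose by 0.96 log2 units and Nfe2l2, which encodes NRF2, by 0.82. In RAW the level of Bach1 was lower after LPS, at 61.5 CPM at rest and 48.8 CPM with LPS. The Bach1 response was below that of BMDM in hMPDM (-0.62, adjusted p 6.60e-06 by edgeR) and in RAW (-1.29, adjusted p 3.52e-08). That of Nfe2l2 was smaller in hMPDM (-0.49, adjusted p 3.32e-06 by edgeR) and in RAW (-0.41, adjusted p 1.40e-04), the latter not by library size (-0.14, adjusted p 0.178). Mafg, the third small MAF gene, picked here after its values were seen, passed at 0.11 (adjusted p 0.0292 by edgeR) and turns to -0.26 by library size.

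Among 18 genes of the MAP kinase pathways that act on AP-1, 11 rose and 3 fell in BMDM (median 0.29), and 5 rose and 8 fell by library size. Map3k8, the kinase TPL2 of the LPS to ERK route, rose by 2.82 log2 units, and Mapkapk2, which acts downstream of p38, by 2.58, and both responses were smaller in RAW (log2 differences -1.92 and -1.28, adjusted p 6.39e-05 and 1.07e-13 by edgeR). Map3k1 fell by 1.08 and Map2k6 fell by 1.04. Of 6 genes listed under serum response and ternary complex factors, 1 rose (Elk4, 0.49) and 4 fell, with a median of -0.25. Those that fell included Mrtfb (-0.74) and Mrtfa (-0.66). By library size none rose and 5 fell, with Elk4 at 0.12 (adjusted p 0.179 by edgeR).

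Of 10 tested genes known from textbooks to carry AP-1 sites, 6 rose and 2 fell in BMDM (median 0.46; 5 and 3 by library size). Mmp13, collagenase 3, rose by 4.38 log2 units from 14.5 to 304 CPM, and Cd44, a hyaluronan receptor, by 1.28. Plau, urokinase, fell by 1.40, and Mt1, a metallothionein, fell by 0.22. Plau was also among the 6 of these genes whose response was higher in RAW than in BMDM, by 1.76 units (adjusted p 3.04e-17 by edgeR), with 2 lower, beside 10.0% and 12.7% of all genes and, by library size, a split of all such calls of 75.6% higher. Of 7 heat shock genes, 4 rose and 3 fell (median 0.24; 2 and 3 by library size), with Hspa1b, a near-identical copy of Hspa1a whose reads may be split with it, up by 4.40 units and Hsp90aa1 by 0.26 (-0.10 by library size), and with Hsph1 (-0.45) and Hspd1 (-0.31) on the lower side.

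Likeness was measured as the root mean square difference of log2 CPM, centred on each gene, over the 6 group means, and it is a description with no test. Within the group the closest pairs were Atf3 with Maff (0.397) and Atf3 with Mafk (0.398), then Jun with Jund (0.488). Over all 12461 genes, the closest to Junb were Exoc3l4 (0.13) and Slc44a1 (0.22), to Atf3 Ptprj and Sdc4 (both 0.18), to Maff Syt7 (0.23) and Nlrp3 (0.28) and to Mafk Tet2 (0.073) and a gene with no symbol (0.047). Fos was closest to 4933407K13Rik (0.15) and Gm13341 (0.16), and Fosl2 to Plk3 (0.19) and Zfp970 (0.33). Of these, 4933407K13Rik, Gm13341, Zfp970 and Syt7 stood under 5 CPM in every group, Syt7 at 0 in 2 of them, so their likeness rests on few counts, and both matches of Fosb below were also under 5 CPM. Jun and Jund, which varied least, were closest to Osbpl8 (0.040) and Tsc1 (0.061) for Jun and Tmbim1 (0.053) and Vhl (0.087) for Jund. Fosb and Fosl1 had none within 0.5, the nearest being Hrh1 (0.51) and Gspt2 (0.53) for Fosb and Rhoc (0.64) and Pdgfb (0.66) for Fosl1.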

How the data were processed

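Polyadenylated RNA from BMDM, hMPDM and RAW cells was sequenced, with groups and replicates taken from the sample labels. Values in the deposited table are raw counts of reads for each gene, and the authors' tools were cutadapt, STAR, SAMtools, bedtools and featureCounts on mm10, per the submitters' processing notes, with no versions; whether counting used strand is not given in the sources used here. Of its 10 value columns, 8 matched a sample and 2 were not used. Of 43346 identifiers, 42462 matched a symbol. The 10 genes and the related lists were chosen with earlier results of these data known.

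Counts were analysed in edgeR 4.0.16 (R 4.3.3) with filterByExpr, TMM scaling and a quasi-likelihood fit that gives each group its own coefficient (8 libraries, 2 residual degrees of freedom from the BMDM pairs), and a further fit of cell type plus LPS (4 residual degrees of freedom). Adjusted p-values are Benjamini-Hochberg values over 12461 genes, called at 0.05. The SE is the log2 value divided by the square root of F. Replicate counts of BMDM differed by more than sampling noise (chi-square per degree of freedom 1.60 and 1.69). Ratios of single libraries have exact 95% intervals and floors of 3 counts, which cover counting error only (PCR reads without molecular identifiers are not independent). Genes named from a related list were the 2 largest rises and 2 largest falls among those called in BMDM with at least 5 CPM, and the 2 genes most like each member are named. The script was tested on simulated data. Alternatives tried were library size, DESeq2 1.42.0, its size factors, no filter, a coefficient of variation set at 10%, a test against a fold of 2, left-out libraries, a replicate block and the BMDM share taken out of 1 library. A further list of related genes is not reported here.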

Additional observations from a re-analysis of the deposited data

Results flagged for a closer look

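The test of the difference between LPS responses set 8 values apart, all on the log2 scale by edgeR with adjusted p under 0.05. In hMPDM the Fos response was 1.30 above that of BMDM, with both BMDM libraries lower after LPS and the single hMPDM library higher. In RAW the response was above that of BMDM for Fos (1.23), Fosl1 (2.70), Fosl2 (2.63) and Jun (0.55). It was below that of BMDM in RAW for Junb (-1.70), Atf3 (-0.68) and Mafk (-1.25). Each rests on 1 hMPDM or RAW library per state, and the Fosl1 value on 3 counts in RAW at rest.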

How the results depend on the processing

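Depth limits Fosb and Fosl1 outside BMDM, with 0 to 9 counts in hMPDM and in RAW at rest, and single libraries limit every hMPDM and RAW value. Calls that library size without TMM changes are given with the results. It also lowers the hMPDM log2 ratios, to 2.20 for Junb, 2.08 for Atf3, 2.59 for Maff, 1.77 for Mafk, 0.089 for Jund, 0.19 for Fos and -0.70 for Jun, and the BMDM share taken out gives 2.37 for Junb and 2.29 for Atf3. The number of the 10 genes called changed by over 1.5 times as follows. Against a fold change of 2, 5 were called in BMDM LPS, 2 in hMPDM and 2 in RAW against BMDM at rest, 0 in hMPDM and 4 in RAW after LPS, 0 and 2 for the hMPDM and RAW differences of responses, and 4 over 3 cell types. DESeq2 gave 3 for hMPDM against BMDM at rest and 3 after LPS, and a coefficient of variation of 10% gave 5 and 2. For the hMPDM difference, DESeq2 size factors gave 2 (Fos and Mafk) and the BMDM share taken out gave 3. Leaving out each BMDM library gave 9 in BMDM LPS, 7 to 8 and 6 to 7 for hMPDM against BMDM at rest and after LPS, 7 and 8 to 9 for RAW, 1 to 2 and 7 to 8 for the differences, and 6 over 3 cell types. The cause of these moves was not tested.

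Over all genes, DESeq2 called 4159 in BMDM LPS (7815 with edgeR), 1365 and 1246 for hMPDM against BMDM at rest and after LPS (4766 and 3121), 4463 for RAW at rest (7282), and 264 and 1374 for the hMPDM and RAW differences (979 and 2832). With a coefficient of variation of 10% these were 5161, 1714, 1235, 123 and 1211, RAW at rest not moving by as much. Against a fold of 2 they were 1555 in BMDM LPS, 509 and 215 for hMPDM, 1823 and 2777 for RAW (8249 with edgeR after LPS), 31 and 478 for the differences and 739 over 3 cell types (6121). The size rule at 4-fold held 552 genes in hMPDM and 79 in RAW (1694 and 373 at 2-fold), and at 1 CPM 805 in RAW.

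Directions turned mainly for values that did not pass. For RAW against BMDM at rest, library size gave 0.18 for Fos, 0.12 for Fosl1 and 0.20 for Mafk, DESeq2 size factors gave 0.017 for Fos and 0.036 for Mafk, and DESeq2 gave 0.023 and 0.033. With BMDM libraries left out these ran from -0.086 to 0.077 for Fos, -0.15 to 0.024 for Fosl1 and -0.036 to 0.042 for Mafk. Mafk in hMPDM at rest ran from -0.0098 to 0.073, the hMPDM difference from -0.16 to 0.015 for Junb and -0.12 to 0.25 for Jund, and Fos over 3 cell types from -0.074 to 0.028. After LPS, library size put RAW above BMDM for Jun (0.34) and Jund (0.31), and both passed.

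Deviations of same-numbered BMDM libraries at rest and after LPS were not correlated (Pearson r -0.035 across 12461 genes, which are not independent). This single value cannot tell whether same-numbered libraries share a culture, which the labels do not give. A replicate block left the counts of the 10 genes at 9 in BMDM LPS, 8 and 6 for hMPDM at rest and after LPS, 7 and 8 for RAW, 1 and 7 for the differences, and 6 over 3 cell types, where Fosl2 (adjusted p 0.0631 by edgeR) and Jun (0.0847) were lost. The block was a term for the second BMDM libraries, with the hMPDM and RAW libraries set beside the first ones. It therefore cannot check how hMPDM or RAW libraries pair with those of BMDM. Under the block Mafk in hMPDM at rest was -0.0064, and RAW at rest was 0.051 for Fos and 0.014 for Fosl1.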
